A study of Mus musculus with 30 samples.

Results

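Fatty acid synthesis was described by 10 genes among the 26253 gene symbols quantified in mouse aorta. They are the enzymes *Acly*, *Acaca*, *Acacb*, *Fasn*, *Elovl6*, *Scd1*, *Me1* and *Agpat2* and the regulators *Thrsp* and *Mlxipl*. They were picked by symbol for their role in the pathway, after an earlier analysis of the same libraries had shown fatty acid synthase to be low under androgen antagonists, so their differences in those groups are given as a description. All 10 had counts in all 30 libraries and passed the filter on low counts in each of the 10 comparisons made.

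Libraries came from the descending thoracic aorta of male mice. Mice heterozygous for the *Col3a1* missense allele G938D/+ model vascular Ehlers-Danlos syndrome and are called VEDS mice, and *Col3a1* +/+ mice served as controls. The 3 VEDS aortas on hydralazine plus spironolactone (HS) and the 3 on hydralazine plus bicalutamide (HB) stand beside 6 VEDS aortas on hydralazine alone and 6 from untreated VEDS mice. A further 6 aortas came from hydralazine-treated and 6 from untreated controls. Hydralazine, a vasodilator, was given at 32 mg/kg/day in drinking water from birth. Spironolactone, an antagonist of the mineralocorticoid and androgen receptors, was given at 100 mg/kg/day and bicalutamide, an androgen receptor antagonist, at 50 mg/kg/day, in chow from day 21. HS and HB aortas were taken on day 60, whereas the 4 groups of 6 pool day 30 and day 60. The age of a library in those groups is not labelled, so age and the antagonist cannot be told apart where HS or HB is compared with any of those groups. HS and HB themselves were of the same age. The allele is constitutive, the series has no VEDS group given an antagonist without hydralazine, and no antagonist was given to controls.

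Library totals ran between 5517509 and 8293287 counts. The smooth muscle myosin heavy chain *Myh11* stood between 5212 and 10632 CPM, counts scaled to a common library total. The labels say that the adventitia had been stripped. The 8 fibroblast markers summed to between 9030 and 32347 CPM. Collagen genes had the largest means of these markers, with *Col3a1* at 9725, *Col1a2* at 4497 and *Col1a1* at 2275 CPM. *Dcn* came next at 1095 CPM. The paper reports these collagen transcripts in smooth muscle cells too. The sum therefore cannot tell how much adventitia was left. Transcripts of other tissues were present at uneven levels. *Alb*, made by hepatocytes, ran from 47.5 to 10859 CPM, and *Myh6*, a cardiac myosin, was highest in control hydralazine replicate 5 (427 CPM) and in HB replicate 2 (403 CPM). Of the 12 white and 12 brown adipocyte markers none was at 0 in every library of a group, except *Zic1* in the HB, VEDS hydralazine and untreated control groups.

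Cells make fatty acids from citrate that leaves the mitochondrion. The cytosolic citrate is split to acetyl-CoA, carboxylated to malonyl-CoA and built into palmitate by fatty acid synthase with electrons from NADPH, and palmitate is then elongated, desaturated and esterified. Liver and adipose tissue, white and brown, are the main sites of this pathway, and the descending aorta is wrapped in perivascular fat that has brown features in mice. For that reason each member was set beside *Adipoq*, the adipocyte hormone adiponectin, and *Ucp1*, the uncoupling protein of brown adipocytes, in every library. In bulk RNA, fewer cells of a type and less RNA per cell cannot be told apart.

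The start sites of the pathway's genes are known for binding the factors NF-Y, SREBP-1 and, at carbohydrate response elements built of E-boxes, the product of *Mlxipl*. Promoters were available from RefSeq (GRCm38.p6) for 9 of the 10 members, with *Me1* and *Mlxipl* having 2 start sites each, and the 250 bases upstream of each start were searched on both strands. A member was counted if any of its starts held the letters, whereas the shares over all promoters count each promoter singly. The NF-Y letters CCAAT were found upstream of 5 members (*Fasn*, *Acacb*, *Me1*, *Thrsp* and *Mlxipl*) and in 33.8% of 32851 promoters. The GC box GGGCGG was found upstream of 4 (*Acly*, *Me1*, *Mlxipl* and *Agpat2*), against 32.7% of all promoters. The E-box CACGTG and the sterol response element TCACNCCAC, where N is any base, were each found upstream of *Mlxipl* alone, against 6.02% and 1.05% of all promoters. They lay at different starts of *Mlxipl*, as did the CCAAT and GC box matches of *Me1*. The direct repeat 1 and direct repeat 4 of nuclear receptors were found upstream of none, against 0.0335% and 0.0152%. The 3 sequences below are shown because *Fasn* and *Thrsp* each hold more than 1 CCAAT match within 90 bases of the start and the regulator *Mlxipl* holds the E-box. They are written 5′ to 3′ on the gene's strand, with CCAAT (or ATTGG, its complement) and CACGTG in capitals. The window of *Fasn* is chr11:120824548-120824797 (minus strand), that of *Thrsp* is chr7:97417551-97417800 (minus strand) and that of *Mlxipl* is chr5:135089640-135089889 (plus strand).
Fasn: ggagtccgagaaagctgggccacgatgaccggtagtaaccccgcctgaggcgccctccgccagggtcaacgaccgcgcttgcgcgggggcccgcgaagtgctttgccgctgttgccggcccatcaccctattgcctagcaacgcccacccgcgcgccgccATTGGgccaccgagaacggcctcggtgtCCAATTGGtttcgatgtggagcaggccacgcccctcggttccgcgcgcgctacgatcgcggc
Thrsp: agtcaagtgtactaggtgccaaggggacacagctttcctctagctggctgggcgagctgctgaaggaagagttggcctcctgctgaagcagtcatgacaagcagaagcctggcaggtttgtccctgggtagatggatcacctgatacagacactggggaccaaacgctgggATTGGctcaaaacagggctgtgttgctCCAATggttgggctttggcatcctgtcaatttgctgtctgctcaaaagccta
Mlxipl: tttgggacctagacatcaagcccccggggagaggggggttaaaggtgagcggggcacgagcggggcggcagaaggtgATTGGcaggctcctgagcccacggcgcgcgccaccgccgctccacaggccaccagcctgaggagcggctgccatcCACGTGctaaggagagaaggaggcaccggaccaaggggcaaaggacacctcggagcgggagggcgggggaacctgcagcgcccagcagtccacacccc
The matches in *Fasn* begin 90, 62 and 59 bases before the start, and the last 2 overlap. Those in *Thrsp* begin 79 and 52 bases before it, on opposite strands. In *Mlxipl* the CCAAT match begins 173 bases and the E-box 98 bases before the start. These matches are letters in a window and say nothing of whether a factor was bound.

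Per transcript length, the desaturase gene *Scd1* was the most abundant member, at 339 ± 181 TPM (a length-scaled share of the library's transcripts, mean ± SD over 30 libraries). It was followed by *Fasn* (108 ± 67.4 TPM), *Thrsp* (89.8 ± 52.0 TPM), *Acly* (63.9 ± 33.2 TPM), *Agpat2* (46.8 ± 26.2 TPM) and *Acaca* (42.0 ± 21.8 TPM). *Me1* (26.9 ± 8.75 TPM), *Elovl6* (10.1 ± 6.62 TPM), *Acacb* (9.33 ± 5.09 TPM) and *Mlxipl* (3.43 ± 1.52 TPM) were the least abundant. *Scd1* was above *Fasn* in 30 of 30 libraries and *Acacb* above *Mlxipl* in 30 of 30. *Elovl6* was above *Acacb* in 17 of 30, so that these neighbours had no fixed order. *Fasn* was above *Thrsp* in 24 of 30 and *Agpat2* above *Acaca* in 23 of 30. The smallest count of any member in a library was 46, for *Mlxipl*, and the uncertainty of read assignment that the deposited files give was at most 0.00348% of a member's count.

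The members differed widely between libraries and moved together. Between the highest and the lowest library *Fasn* differed by 29.5-fold, *Elovl6* by 25.3-fold, *Scd1* by 13.3-fold, *Thrsp* by 11.2-fold and *Agpat2* by 9.71-fold, while *Me1* differed by 3.16-fold. HS replicate 3 was the lowest of 30 libraries for 8 members, and untreated VEDS replicate 6 the highest for 7. Untreated control replicate 3 was among the 6 lowest libraries for all 10 members, without an antagonist. It also had the lowest *Ucp1* (25.3 CPM) of the 30 libraries and, after HB replicate 1, the lowest *Adipoq* (23.3 CPM). Over the 45 pairs of members, Pearson's r of log2(CPM + 1) ran from 0.75 to 0.98 with a median of 0.92. With each group centred on its mean, r ran from 0.60 to 0.97 with a median of 0.88. The libraries behind these values share their depth and tissue makeup, and the r values are a description.

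**Figure D1:**
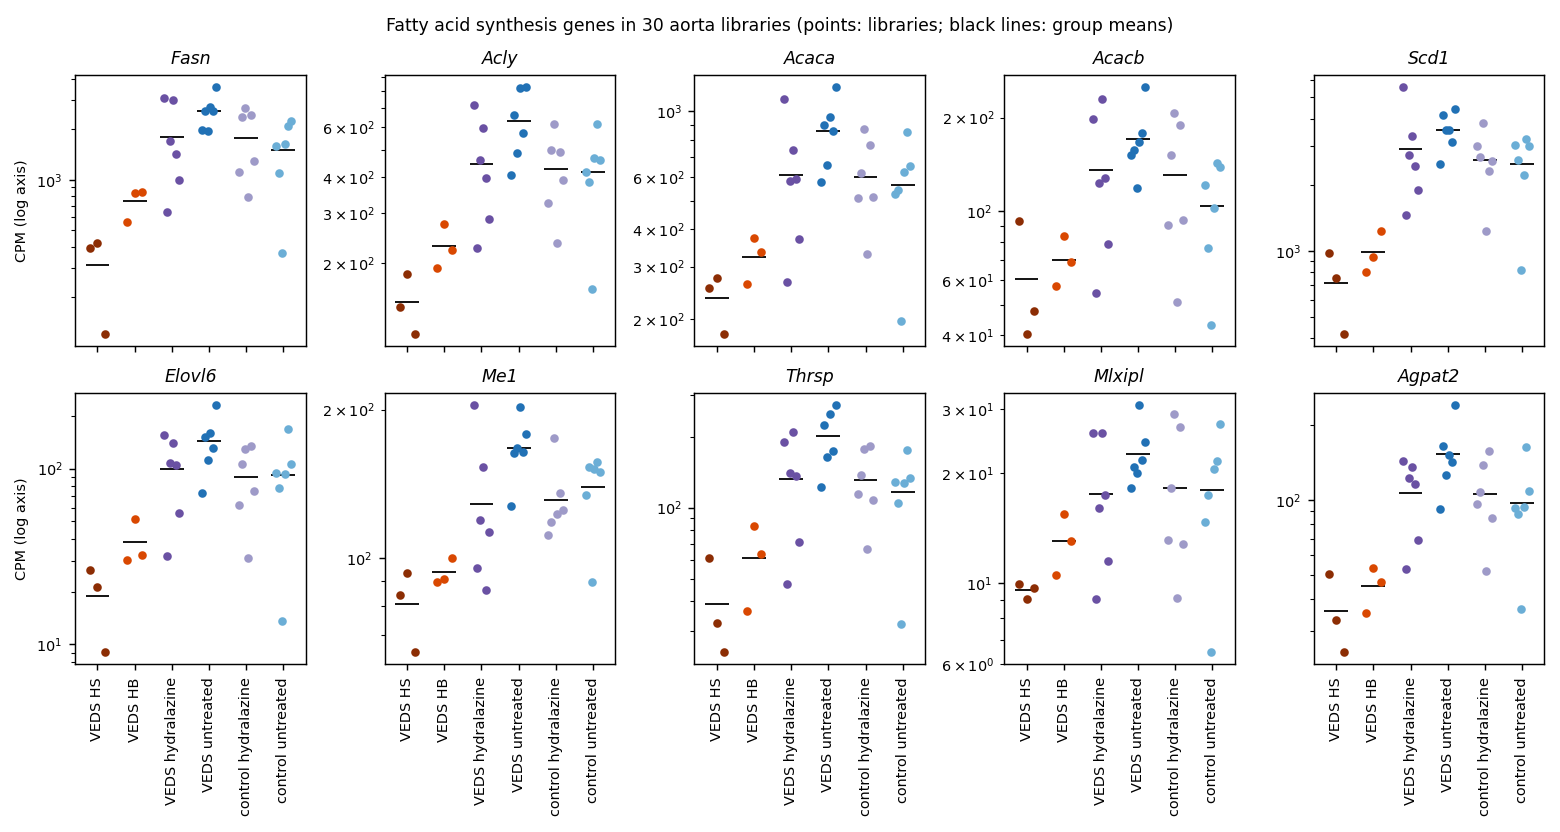
Level of each fatty acid synthesis gene in each of the 30 aorta libraries, in CPM on a log axis that differs between panels, with 1 point per library and a black line at the group mean. HS libraries lie at the bottom of most panels, with *Fasn* at 121 to 418 CPM against 1966 to 3576 CPM in untreated VEDS libraries, and 1 untreated control library lies as low as they do.

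HS and HB were compared with VEDS aortas on hydralazine alone, which differ from them by the antagonist and by the ages pooled, and with untreated VEDS aortas, which differ by hydralazine as well. Against hydralazine alone the members' median log2 fold change was −1.59 in HS and −1.05 in HB and edgeR called none of the 10, as detailed after the comparison with untreated aortas. All 10 members were lower in HS than in untreated VEDS aortas. In the edgeR fit over all genes 9 of them passed the threshold for a call (an adjusted p up to 0.05), with adjusted p-values of 0.0311 to 0.0409, and the median log2 fold change of the 10 was −2.10, beside −0.01 over all 13276 genes tested. Lower calls made up 0.256% and higher calls 0.0527% of the genes tested. In HB the 10 members were lower as well, 7 of them called with adjusted p-values of 0.0115 to 0.0431, and their median was −1.59, beside −0.02 over 13204 genes. There, 0.197% of genes were called lower and 0.212% higher. DESeq2 called 10 of 10 members lower in both, against 1.51% of all genes in HS and 2.17% in HB. HS and HB were compared with the same 6 untreated libraries, so the HS and HB values are not independent of each other. *Ucp1* of brown adipocytes was also lower in value in these libraries, at 27.6 to 168 CPM in HS and 54.3 to 193 CPM in HB against 219 to 885 CPM in untreated VEDS aortas. With *Adipoq* and *Ucp1* as a covariate the members' medians were −1.41 in HS and −0.64 in HB. In those edgeR fits 0 members were called, and no other gene in the table was. An unadjusted p under 0.05 remained for 10 members in HS and 7 in HB, against 6.23% and 5.87% of all genes.

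The enzymes that lead from citrate to malonyl-CoA were low in both groups. *Acly*, ATP citrate lyase, which makes cytosolic acetyl-CoA from citrate, had 141, 184 and 113 CPM in HS and 193, 273 and 222 CPM in HB aortas, against a lowest, median and highest value of 406, 616 and 829.5 CPM in untreated VEDS aortas. Its HS and HB libraries all lay below the untreated ones, with log2 fold changes of −2.12 ± 0.27 in HS and −1.46 ± 0.24 in HB (SE). *Acaca*, the cytosolic acetyl-CoA carboxylase, had 255, 274 and 178 CPM in HS and 263, 374 and 336 CPM in HB, against 579, 875 and 1207 CPM in untreated VEDS. Its log2 fold changes were −1.87 ± 0.25 in HS and −1.41 ± 0.23 in HB. *Acacb* is the carboxylase at the mitochondrial surface, whose malonyl-CoA restrains the entry of fatty acids for oxidation. It had 93.3, 40.5 and 47.9 CPM in HS and 57.5, 83.4 and 68.9 CPM in HB, against 119, 162 and 251 CPM in untreated VEDS. It was the member not called in HS, where replicate 1 lay apart from the others (log2 fold change −1.50 ± 0.30, edgeR adjusted p = 0.0863), although DESeq2 called it there, and it was called in HB (−1.29 ± 0.22).

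*Fasn*, fatty acid synthase, which builds palmitate from malonyl-CoA, had the largest log2 fold change of the 10 in HS and the third largest, after *Elovl6* and *Scd1*, in HB. It stood at 392, 418 and 121 CPM in HS and at 564, 835 and 840 CPM in HB aortas. In VEDS aortas on hydralazine alone the lowest, median and highest values were 641, 1561 and 3072 CPM, and in untreated VEDS aortas 1966, 2579 and 3576 CPM. Controls spanned 790 to 2678 CPM on hydralazine and 364 to 2229 CPM untreated. *Fasn* fell 8.34-fold in HS (log2 fold change −3.06 ± 0.40) and 3.46-fold in HB (−1.79 ± 0.22). No HS or HB library reached the lowest untreated VEDS library, yet 1 untreated control library lay below all 3 HB libraries.

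Of the enzymes that modify palmitate, *Scd1*, the stearoyl-CoA desaturase that makes monounsaturated fatty acids, had 978, 750 and 421 CPM in HS and 799, 936 and 1232 CPM in HB aortas. It spanned 1450 to 5577 CPM in VEDS aortas on hydralazine alone and 2489 to 4421 CPM in untreated VEDS aortas. It was the 1 member whose HB libraries all lay below those on hydralazine alone. *Elovl6*, the elongase of palmitate, had 26.6, 21.3 and 9.05 CPM in HS and 30.1, 51.8 and 32.3 CPM in HB, against 72.9, 141 and 228 CPM in untreated VEDS. *Scd1* fell by 2.32 ± 0.28 in HS and by 1.85 ± 0.21 in HB on the log2 scale. *Elovl6* fell by 2.92 ± 0.42 in HS, while its value of −1.91 ± 0.34 in HB missed the threshold with edgeR (adjusted p = 0.052) and passed it with DESeq2.

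*Me1*, the cytosolic malic enzyme that supplies NADPH, had the narrowest range of the 10. It had 84.3, 93.2 and 64.5 CPM in HS and 89.5, 90.9 and 100.3 CPM in HB aortas, against 127, 166 and 202 CPM in untreated VEDS aortas. Its log2 fold changes were −1.06 ± 0.16 in HS and −0.85 ± 0.13 in HB. *Agpat2*, the acyltransferase that makes phosphatidic acid on the way to triglyceride, had 50.6, 33.1 and 24.6 CPM in HS and 35.4, 53.4 and 47.0 CPM in HB, against 92.2, 146 and 239 CPM in untreated VEDS. It fell 4.25-fold in HS and 3.38-fold in HB, and its treated libraries did not reach the untreated ones.

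The 2 regulators followed the enzymes. *Thrsp*, a thyroid hormone-responsive protein that promotes lipogenesis, had 60.9, 32.3 and 24.3 CPM in HS and 36.2, 83.4 and 63.4 CPM in HB aortas, against 122, 198 and 272 CPM in untreated VEDS aortas. *Mlxipl*, which encodes the carbohydrate-responsive factor ChREBP, had 9.92, 9.03 and 9.71 CPM in HS and 10.5, 15.5 and 13.0 CPM in HB, against 18.3, 21.3 and 30.7 CPM in untreated VEDS. Both fell in HS, by 2.37 ± 0.35 for *Thrsp* and 1.25 ± 0.17 for *Mlxipl* on the log2 scale. In HB their values of −1.73 ± 0.31 and −0.80 ± 0.18 were not called by edgeR (adjusted p = 0.052 and 0.0848) and were called by DESeq2.

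In CPM, every HS library lay below every untreated VEDS library for 10 of 10 members, as held for 3.04% of all genes tested, and the same was so for HB, against 3.78% of all genes. Which library was left out changed the number of calls. In HS, 3, 0 and 1 members were called without HS replicate 1, 2 and 3, the last of these having the lowest *Fasn*. Without untreated VEDS replicates 1 to 6 the numbers were 9, 0, 4, 5, 0 and 4. In HB, 0, 0 and 1 members were called without HB replicate 1, 2 and 3, HB replicate 2 being the library with the high *Myh6*. Without untreated VEDS replicates 1 to 6 they were 10, 2, 3, 3, 2 and 4. The number of genes called over the whole table moved as well, between 0 and 104 in HS and between 2 and 529 in HB. The median log2 fold change of the members moved less, between −2.25 and −1.91 in HS and between −1.71 and −1.40 in HB.

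Against VEDS aortas on hydralazine alone, which share the vasodilator, no member was called by edgeR. All 10 had negative log2 fold changes in HS, from −2.54 ± 0.59 for *Fasn* to −0.67 ± 0.26 for *Me1*, with a median of −1.59. All 10 were also negative in HB, from −1.56 ± 0.38 for *Scd1* to −0.44 ± 0.32 for *Mlxipl*, with a median of −1.05. DESeq2 called 5 of the 10 lower in HS and 2 in HB, against 0.331% and 3.08% of all genes. An unadjusted p under 0.05 was found for 10 members in HS, against 13.6% of all genes, and for 8 in HB, against 15.5%. No gene in the table was called by edgeR in HS (0% of 13304 in either direction), and DESeq2 called 54. In HB 0.0151% of 13266 genes were called higher and 0% lower by edgeR, and DESeq2 called 575. In HS, 5 members (*Fasn*, *Acly*, *Scd1*, *Elovl6* and *Agpat2*) had every library below the hydralazine libraries, as held for 2.71% of all genes, and in HB *Scd1* alone did, against 4.58%.

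HS and HB were then set against each other. The members had negative log2 fold changes, 10 of 10, with a median of −0.45, and they ran from −1.26 ± 0.41 for *Fasn* to −0.20 ± 0.30 for *Acacb*. None was called by edgeR or DESeq2, and edgeR called 0% of 12800 genes. An unadjusted p under 0.05 was found for 5 members and for 6.68% of all genes. *Fasn*, *Acly*, *Elovl6* and *Mlxipl* did not overlap between the groups, as held in that direction for 7.89% of all genes. With 3 libraries in each group, the difference between the antagonists was not resolved.

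**Figure D2:**
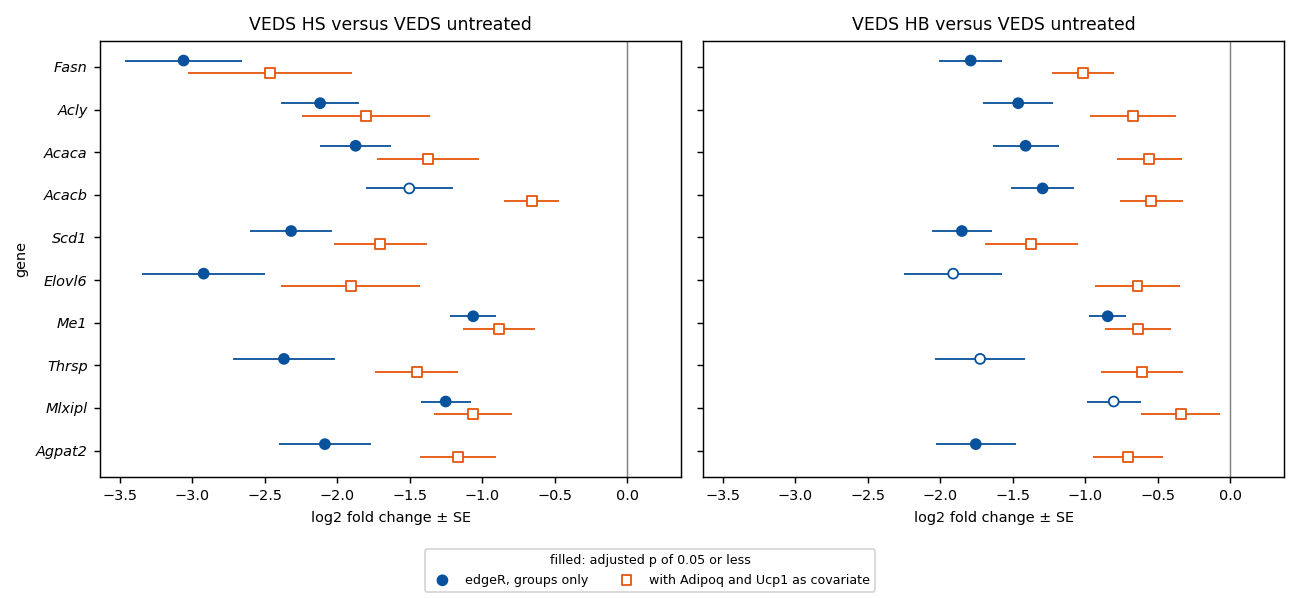
Log2 fold change of each fatty acid synthesis gene in HS (left) and HB (right) aortas against untreated VEDS aortas, with bars of 1 SE, from the edgeR fit of the groups alone (circles) and from the fit with the mean log2 level of *Adipoq* and *Ucp1* as a covariate (squares), where filled symbols passed the threshold. With the covariate the values stayed below 0, with *Fasn* at −2.46 in HS and −1.02 in HB. None of them passed, and no other gene in the table passed in those fits.

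In the groups without an antagonist no member was called, and no gene in the table was (0% in each direction in each of the 5 comparisons with edgeR, while DESeq2 called 0, 1, 2, 11 and 0 genes in the order given here). In untreated aortas the 10 members were higher in VEDS than in control by a median log2 fold change of 0.61, with *Fasn* at 2569 ± 591 CPM in VEDS and 1500 ± 686 CPM in control aortas (SD, n = 6 each). Their log2 fold changes ran from 0.26 ± 0.14 for *Me1* to 0.78 ± 0.32 for *Thrsp*, 5 had an unadjusted p under 0.05, as did 3.04% of all genes, and each adjusted p was 1. The libraries of both genotypes overlapped for every member. Under hydralazine, VEDS and control aortas differed by a median of 0.02, and *Fasn* averaged 1803 ± 1019 CPM in VEDS and 1778 ± 804 CPM in control. Hydralazine against no treatment gave a median of −0.48 in VEDS aortas, with all 10 members negative, and of 0.08 in control aortas, with 8 of 10 positive. The difference between these effects, tested as a genotype by hydralazine interaction, had a median of −0.56. In these last 4 comparisons 0 members had an unadjusted p under 0.05, against 4.64%, 4.53%, 9.5% and 3.28% of all genes, and DESeq2 called 0 members in all 5.

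The adipocyte markers were then read in the same libraries. *Adipoq* stood at 97.2, 35.0 and 37.4 CPM in HS and at 18.7, 45.1 and 29.4 CPM in HB aortas, against 45.2, 55.3 and 82.3 CPM (lowest, median and highest) in untreated VEDS aortas. *Ucp1* stood at 168, 27.6 and 29.7 CPM in HS and at 54.3, 193 and 84.7 CPM in HB, against 219, 446.3 and 885 CPM in untreated VEDS. HS replicate 1 had the highest *Adipoq* of all 30 libraries, beside 392 CPM of *Fasn*. Neither marker was called in HS (edgeR log2 fold change −0.08 ± 0.32 for *Adipoq* and −2.63 ± 0.68 for *Ucp1*, adjusted p = 0.94 and 0.171) or in HB (−0.94 ± 0.26 and −2.07 ± 0.50, adjusted p = 0.126 and 0.0958). Of the whole lists, 11 white and 10 brown markers were tested and 0 were called by edgeR in either group. An unadjusted p under 0.05 was found for 4 white and 7 brown markers in HS and for 7 and 7 in HB, against 11.1% of all genes in HS and 16.4% in HB, and DESeq2 called 2 white and 6 brown markers lower in HS and 6 of each lower in HB. The white markers summed to 671 to 1681 CPM in HS and 427 to 1061 CPM in HB, against 900.4 to 1586 CPM in untreated VEDS. The brown markers summed to 294 to 569 CPM in HS and 353 to 619 CPM in HB, against 609 to 1463 CPM in untreated VEDS.

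Across the 30 libraries every member was positively related to both markers, and r was higher with *Ucp1* than with *Adipoq* for each of the 10, a difference that was not tested. With *Ucp1*, Pearson's r of log2(CPM + 1) ran from 0.71 for *Me1* to 0.95 for *Thrsp* and Spearman's rho from 0.66 to 0.91 (permutation test, 100000 resamples, two-sided). The adjusted p over the 20 pairs was 2e-05 for each member's r, which comes from the smallest p that the resamples can give, and 2.2e-05 to 0.000157 for rho. With *Adipoq*, r ran from 0.50 for *Fasn* to 0.68 for *Acacb*, with adjusted permutation p-values of 7.3e-05 to 0.00466, and rho from 0.55 to 0.68, with adjusted permutation p-values of 6e-05 to 0.00177. These resamples moved libraries freely across groups, so differences between groups enter the p-values. The members were also picked after *Fasn* was known to be low under antagonists, in libraries where *Ucp1* was lower in value too. Without the 2 libraries farthest from the marker's median, r was 0.69 to 0.94 for *Ucp1* and 0.40 to 0.61 for *Adipoq*. With each group centred on its mean it was 0.49 to 0.94 and 0.58 to 0.80. There *Me1* alone had a higher r with *Adipoq* (0.58) than with *Ucp1* (0.49). Within the 4 groups of 6, the median r over the members ran from 0.79 to 0.97 for *Ucp1* and from 0.66 to 0.87 for *Adipoq*, and 20 of these 80 pairs had an adjusted p of 0.05 or less (exact permutation test). Only in VEDS aortas on hydralazine alone was this median higher with *Adipoq* (0.83) than with *Ucp1* (0.79). The groups of 6 pool day 30 and day 60, so differences between ages can enter the centred and within-group r and the within-group p-values.

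**Figure D3:**
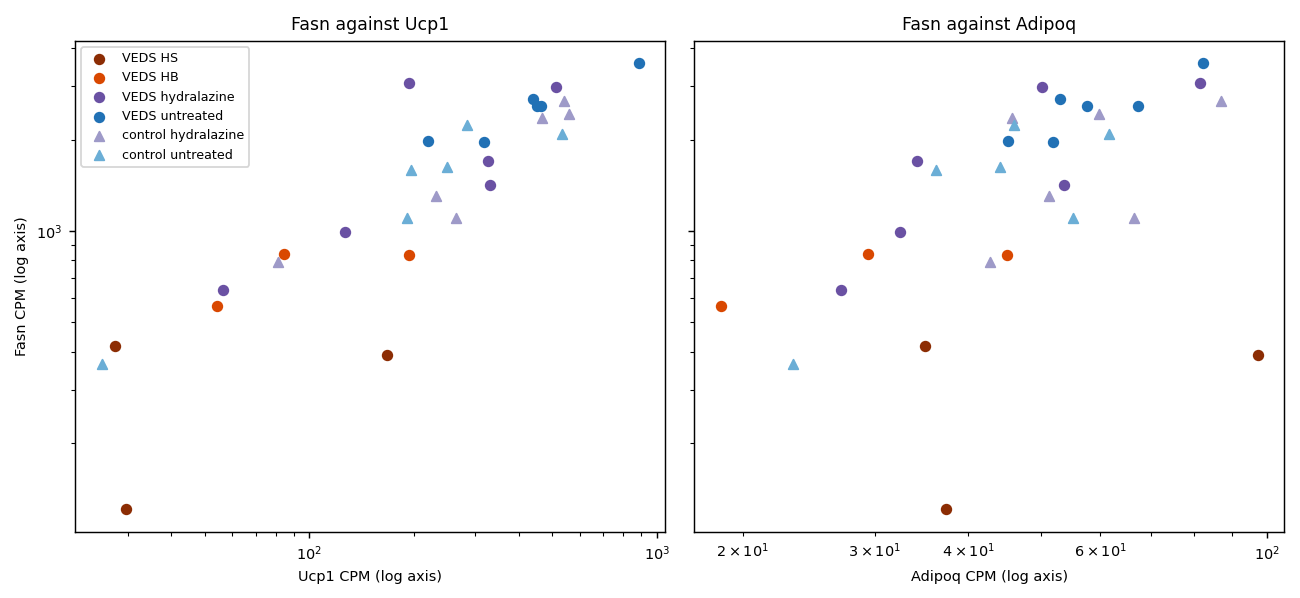
*Fasn* against *Ucp1* (left) and against *Adipoq* (right) in the 30 libraries, in CPM on log axes, with VEDS groups as circles and controls as triangles. The r of *Fasn* was 0.88 with *Ucp1* and 0.50 with *Adipoq*, and HS replicate 1, at 97.2 CPM of *Adipoq*, lies below the libraries with the next highest *Adipoq*.

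The members were also expressed as ratios to each of the 2 markers. The ratio of *Fasn* to *Adipoq* was 4.03, 11.9 and 3.24 in HS and 30.2, 18.5 and 28.6 in HB aortas, against 37.9, 43.7 and 51.5 (lowest, median and highest) in untreated VEDS aortas. The HS and HB ratios all lay below the untreated ones. Per *Adipoq*, 9 members in HS (*Me1* excepted) and 5 in HB (*Fasn*, *Scd1*, *Elovl6*, *Thrsp* and *Agpat2*) had every library below the untreated VEDS libraries, as held for 0.829% and 0.114% of all genes. The same 9 lay below the libraries on hydralazine alone in HS (1.25% of all genes), and 8 members lay below HB in HS (6.7%). In HB against hydralazine alone *Scd1* was the 1 member that did (0.0829% of all genes), and the other 9 overlapped. The ratio of *Fasn* to *Ucp1* was 2.34, 15.1 and 4.09 in HS and 10.4, 4.31 and 9.91 in HB, against 4.04, 5.94 and 9.05 in untreated VEDS. Per *Ucp1* the groups overlapped for all 10 members in both comparisons with untreated VEDS aortas. The libraries lay below for 0.00753% of all genes in HS and 0% in HB, so this overlap is not particular to the members. These ratios move with the marker as well as with the member, and HS replicate 1 had the highest value of its group for both markers.

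**Figure D4:**
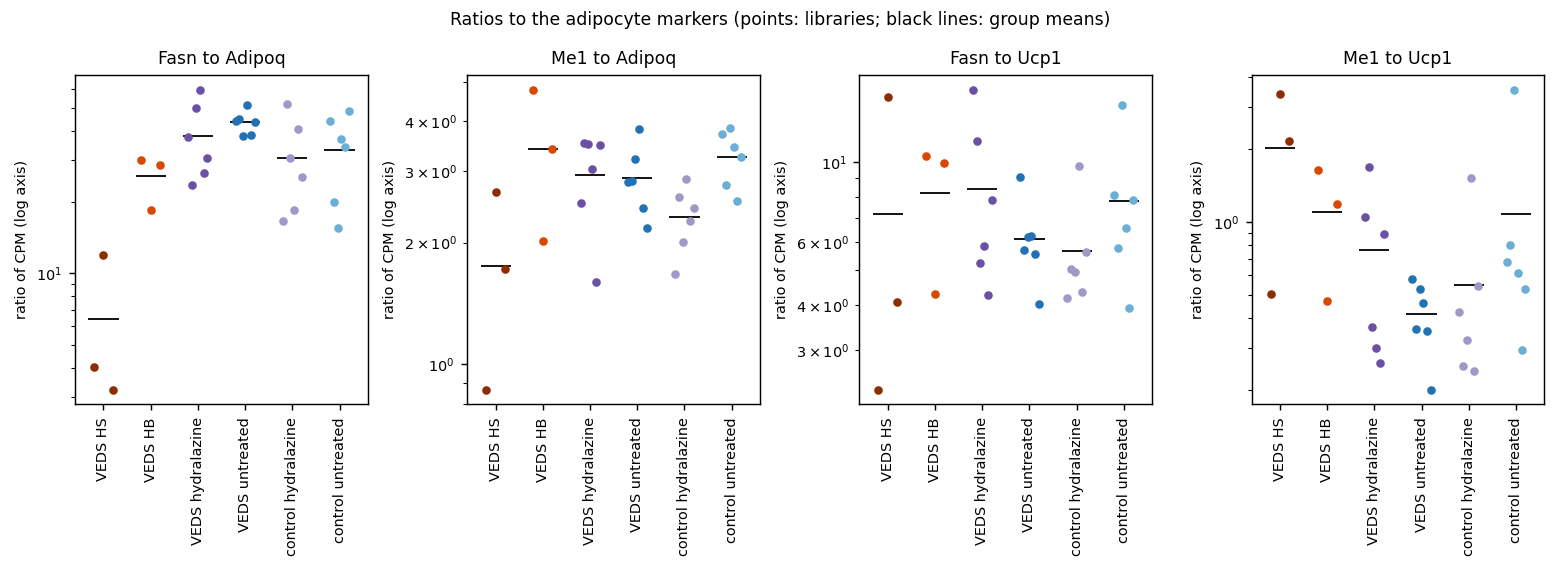
Ratio of *Fasn* and of *Me1* to *Adipoq* and to *Ucp1* in each library, on log axes, with 1 point per library and a black line at the group mean. *Fasn* per *Adipoq* was 3.24 to 11.9 in HS against 37.9 to 51.5 in untreated VEDS libraries, and *Fasn* per *Ucp1* overlapped between all groups. Per *Ucp1*, every library lay below untreated VEDS for 0.00753% of all genes in HS and 0% in HB, so this overlap is not particular to *Fasn*.

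Against untreated VEDS aortas, no member was called with both markers in the fit. With the mean log2 level of *Adipoq* and *Ucp1* as a covariate, 0 members and 0 genes were called by edgeR in HS and in HB, with median log2 fold changes of the members of −1.41 in HS and −0.64 in HB. An unadjusted p under 0.05 was found for 10 members in HS and 7 in HB, against 6.23% and 5.87% of all genes. With *Ucp1* alone 0 were called in both, with medians of −1.05 in HS and −0.53 in HB. With that covariate 9 members in HS and 6 in HB had an unadjusted p under 0.05, against 6.28% and 5.75% of all genes. With *Adipoq* alone 10 were called in HS and 0 in HB (median −0.89), and with the mean of the white adipocyte markers 4 in HS (−1.87) and 0 in HB (−0.90). The HS values with *Adipoq* alone ran from −2.96 for *Fasn* to −1.04 for *Me1*. In that fit 10 members in HS and 9 in HB had an unadjusted p under 0.05, against 10.6% and 6.44% of all genes. For the white adipocyte markers the numbers were 10 and 9, against 8.86% and 6.13%. A covariate takes up part of the group difference wherever it differs between the groups itself, as the *Ucp1* values did. The hepatocyte markers were also lower in value, with medians of −2.14 in HS and −2.48 in HB. None was called by edgeR or DESeq2, although 4 of 12 had an unadjusted p under 0.05 in HB and 0 in HS, but with them as a covariate 9 members were called in each. With the fibroblast markers 9 were called in HS and 8 in HB. In both of these fits 10 members had an unadjusted p under 0.05 in HS and in HB. The shares of all genes were 9.23% in HS and 14.3% in HB with the hepatocyte markers, and 11.8% and 17.1% with the fibroblast markers. Further below, numbers of genes called over the whole table are given for most of these fits. Against hydralazine alone, the hepatocyte covariate gave values from −1.85 for *Fasn* to −0.51 for *Acacb* in HS (−2.54 and −1.16 without it). In HB they ran from −1.81 for *Scd1* to 0.01 for *Mlxipl* (−1.56 and −0.44 without it). The *Adipoq* and *Ucp1* covariate gave −1.74 for *Fasn* to −0.41 for *Acacb* in HS, and −0.99 for *Scd1* to 0.15 for *Mlxipl* in HB. With the same *Adipoq* and *Ucp1* covariate the median for untreated VEDS against control was 0.07. The part of adipose RNA in any of these differences was not tested.

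The pathway around the members was described with 6 lists of 77 genes listed in the files. Counts at an unadjusted p under 0.05 in these lists stand against 11.1% of all genes in HS and 16.4% in HB. Of 12 genes that supply acetyl-CoA and NADPH, 12 were lower in value in HS and 4 passed the test. These were the mitochondrial citrate carrier *Slc25a1*, the acetyl-CoA synthetase *Acss2*, the NADPH-producing *G6pdx* and the insulin-responsive glucose transporter *Slc2a4*. *Slc25a1* averaged 33.1 ± 5.49 CPM in HS (n = 3) and 91.7 ± 24.6 CPM in untreated VEDS aortas (n = 6), a log2 fold change of −1.48 ± 0.23. *Acss2* averaged 27.8 ± 4.09 CPM in HS and 97.2 ± 31.2 CPM in untreated VEDS, and *Slc2a4* 21.3 ± 2.23 CPM in HS and 46.5 ± 7.86 CPM in untreated VEDS. *G6pdx* was the smallest of these changes, at 38.7 ± 4.19 CPM in HS and 55.5 ± 3.01 CPM in untreated VEDS. The median of the list was −0.75 in HS and −0.69 in HB, where 0 of 12 passed edgeR's test while DESeq2 called 8 lower and 11 had an unadjusted p under 0.05. In HS DESeq2 called 10 lower.

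Of 14 tested genes of glycerolipid assembly, *Gpd1*, which makes glycerol-3-phosphate, fell in both groups. It averaged 117 ± 68.7 CPM in HS and 160 ± 70.5 CPM in HB, against 601 ± 191 CPM in untreated VEDS, with log2 fold changes of −2.36 ± 0.39 in HS and −1.91 ± 0.33 in HB. The medians of this list were −0.43 in HS and −0.45 in HB. Of 8 genes of fatty acid uptake and lipid breakdown, *Angptl4*, an inhibitor of lipoprotein lipase, fell in HB to 18.7 ± 3.68 CPM, against 44.6 ± 10.6 CPM in untreated VEDS, and 0 of 8 passed edgeR's test in HS, where DESeq2 called 1 and 1 had an unadjusted p under 0.05. Of 14 tested elongases and desaturases 0 passed edgeR's test in either group, DESeq2 called 0 in HS and 1 in HB, and 4 in HS and 6 in HB had an unadjusted p under 0.05. The most abundant of them, the desaturase *Scd2*, averaged 183 ± 101 CPM in HS and 189 ± 1.61 CPM in HB, against 231 ± 50.6 CPM in untreated VEDS. Of 9 genes of mitochondrial fatty acid synthesis 0 passed edgeR's test, DESeq2 called 1 in HS and 3 in HB, and 3 in HS and 4 in HB had an unadjusted p under 0.05. The medians of these lists lay between −0.33 and −0.20.

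Of 16 regulators of lipogenic transcription 0 passed edgeR's test in HS or HB. An unadjusted p under 0.05 was found for 4 in HS and 9 in HB, and DESeq2 called 0 in HS and, in HB, 1 higher and 2 lower. Their median log2 fold changes were −0.15 in HS and 0.00 in HB. *Srebf1*, which encodes the sterol-responsive factor SREBP-1, averaged 59.5 ± 18.1 CPM in HS and 73.4 ± 8.07 CPM in HB, against 76.0 ± 12.3 CPM in untreated VEDS. *Rxra*, the partner of several nuclear receptors, averaged 80.8 ± 12.5 CPM in HS and 96.7 ± 7.03 CPM in HB, against 92.1 ± 15.6 CPM. *Insig1*, an SREBP target that retains the precursor in the endoplasmic reticulum, averaged 55.8 ± 18.5 CPM in HS and 51.1 ± 6.09 CPM in HB, against 98.0 ± 35.3 CPM. The log2 fold changes of *Insig1*, −0.83 ± 0.32 in HS and −0.95 ± 0.29 in HB, did not pass edgeR's test (adjusted p = 0.386 and 0.146). The activity of these factors is not read from their RNA.

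**Figure D5:**
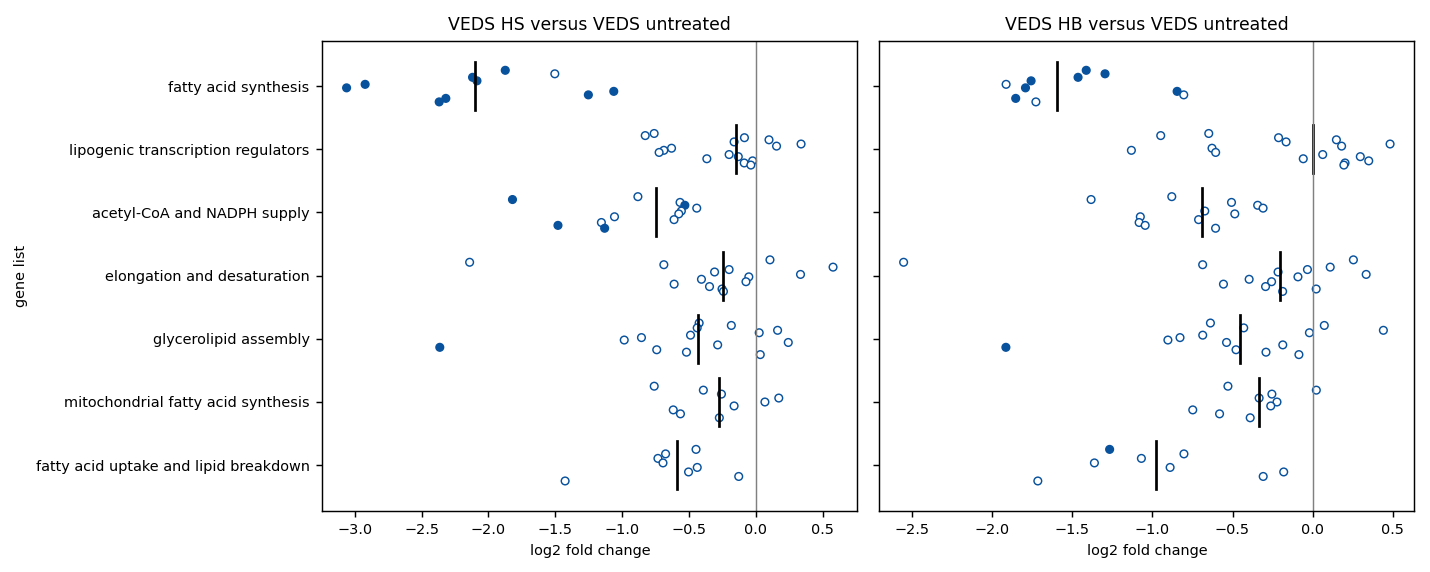
Log2 fold changes of the genes of the fatty acid synthesis set and of 6 further lists in HS (left) and HB (right) against untreated VEDS aortas, with 1 point per gene, filled where the edgeR adjusted p was 0.05 or less, and a black bar at the median of the list. The medians were −2.10 and −1.59 for fatty acid synthesis and −0.15 and 0.00 for the transcription regulators.

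Genes outside the set were ranked by how closely their log2(CPM + 1) followed the mean of the members' standardised values over the 30 libraries. Among 13524 genes the highest Pearson r values were those of the glycolytic enzyme *Eno1* (0.98), the pentose phosphate enzymes *Tkt* (0.98) and *Taldo1* (0.97), *Slc25a1* (0.97) and *Gpd1* (0.96). They were followed by the phosphofructokinase *Pfkl* (0.95), the NADPH-producing *Pgd* (0.95), the mitochondrial glycerophosphate dehydrogenase *Gpd2* (0.94), the pyruvate carrier subunit *Mpc1* (0.94) and the pyruvate dehydrogenase subunit *Dlat* (0.93). *Ucp1* ranked 20 (r = 0.92), *Adipoq* ranked 589 (r = 0.62) and *Srebf1* ranked 743 (r = 0.58), and *Myh11* had an r of −0.49. These are descriptions over libraries that share their tissue makeup.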

How the data were processed

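RNA-seq was performed on 30 descending thoracic aortas, 6 groups by the labels. Per the paper, aortas were cleaned of perivascular fat. The authors made stranded total RNA libraries, used CASAVA 1.8.4 to convert base calls into reads and used RSEM for quantification. Expected counts as deposited (97.6% whole within 1e-06) were rounded, and the deposited TPM gave the order of levels between genes. Extraction batches held 1 aorta per treatment group, but batch and age are not labelled per library and could not be modelled. The p-values measure the spread between these libraries. In the groups of 6 that spread includes the step from day 30 to day 60 as well as differences between animals, while HS and HB hold day 60 alone.

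Each comparison was fitted on its own libraries with edgeR 4.0.16 in R 4.3.3 (TMM, filterByExpr, quasi-likelihood F-test, Benjamini-Hochberg over all genes, called at 0.05). CPM used TMM factors over the 30 libraries, and correlations a pseudocount of 1 CPM. Correlations and motif searches used Python 3.11.15. The tests were checked on simulated data. Alternatives were DESeq2 1.42.0, RLE factors, other low-count filters, 1 fit of all libraries, marker covariates and leaving out each library. The covariates of fibroblast markers, *Adipoq* alone and *Ucp1* alone were chosen after seeing the data.

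The members, lists and tests were chosen with earlier results of these data known. Genes named are the 10 members, *Adipoq*, *Ucp1*, up to 6 called list genes with the smallest adjusted p per comparison (3 of the largest mean CPM where none was called), the 10 non-members most like the members, and *Myh11*, *Alb* and *Myh6*. *Zic1* and the fibroblast markers *Col3a1*, *Col1a2*, *Col1a1* and *Dcn* were named after their values were seen. Each promoter was read from RefSeq on GRCm38.p6, which is not the authors' build, and the files hold no coordinates.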

Additional observations from a re-analysis of the deposited data

Results flagged for a closer look

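In groups of 6 libraries, 3 values lay far from the others by the gap to the nearest library, out of 56 groups of values examined, where chance gives about 1 in 20. *Me1* in untreated control replicate 3 was 89.6 CPM, below the other 5 untreated controls. *Ucp1* in untreated VEDS replicate 6 was 885 CPM, above the other 5, in the library that also had the highest *Fasn*. The ratio of *Fasn* to *Ucp1* in control hydralazine replicate 4 was 9.75, above the other 5 of its group.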

How the results depend on the processing

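The members called in HB against untreated VEDS numbered 7, and 10 with DESeq2, 7 with RLE factors, 9 with no low-count filter, 8 with a filter at 5 CPM, 9 with the hepatocyte and 8 with the fibroblast covariate, 2 in 1 fit of all libraries, 0 with the *Adipoq* and *Ucp1* covariate, 0 with the white adipocyte markers, and 0 with *Adipoq* or with *Ucp1* alone. In HS against untreated VEDS 9 were called, 10 with DESeq2, 9 with RLE factors, with either filter and with the hepatocyte or fibroblast covariate, 8 in 1 fit of all libraries, 10 with *Adipoq* alone, 0 with the *Adipoq* and *Ucp1* covariate, 4 with the white adipocyte markers and 0 with *Ucp1* alone. Leaving out each library in turn gave 0 to 10 in HB and 0 to 9 in HS, with 2 to 529 and 0 to 104 genes called over the whole table. DESeq2 called 2 members in HB and 5 in HS against hydralazine alone, where edgeR called 0. No alternative called a member in the other comparisons. Against untreated VEDS, edgeR called 54 genes in HB and 41 in HS, and DESeq2 564 and 295. The hepatocyte covariate gave 161 in HB and 65 in HS, 1 fit of all libraries 141 in HS, the fibroblast covariate 26 in HS, *Adipoq* alone 1 in HB and 69 in HS, and the white adipocyte markers 9 in HB and 15 in HS. Against hydralazine alone, edgeR called 2 genes in HB and DESeq2 575, the fibroblast covariate 213 and the hepatocyte covariate 43, and in HS edgeR called 0, DESeq2 54 and the hepatocyte covariate 12. Between HS and HB DESeq2 called 35 and the hepatocyte covariate 10. In controls, hydralazine against no treatment gave 585 genes with *Adipoq* as a covariate and 11 with DESeq2, against 0. No called member changed sign under any alternative. Where none was called, covariates turned medians round, that of the interaction from −0.56 to 0.29 with *Adipoq* and *Ucp1* and that of untreated VEDS against control from 0.61 to −0.09 with the white adipocyte markers. All 20 relations to *Adipoq* and *Ucp1* kept an adjusted p of 0.05 or less under 5 alternatives. The cause of these differences was not tested. No paired analysis was possible because replicate numbers were given in accession order and pair no libraries. HS and HB hold 3 libraries each, and every member had at least 46 counts in each library.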

Other observations

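In untreated aortas, the genes that supply acetyl-CoA and NADPH had the same sign as the members in VEDS against control, with 11 of 12 positive, a median log2 fold change of 0.37 and 0 called by edgeR or DESeq2 (5 with an unadjusted p under 0.05). The white adipocyte markers had 9 of 10 positive and a median of 0.47 in the same comparison, and the brown ones 9 of 10 and 0.68, with 0 called by edgeR or DESeq2 and 6 and 3 with an unadjusted p under 0.05. Their part in the sign of the other lists was not tested. Under hydralazine 5 of 12 genes that supply acetyl-CoA and NADPH were positive, with a median of −0.04. The regulators of lipogenic transcription had medians of 0.04 untreated and 0.08 under hydralazine.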
